A study of Mus musculus with 42 samples.

Results

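Mouse embryonic fibroblasts (MEFs) that lack the long noncoding RNA gene *Tug1* were compared with wild-type MEFs over all genes of the deposited comparison table. The comparison rests on 6 of the 42 samples of the series, 3 wild-type (WT) and 3 knockout (KO), and on the table's rows for WT against KO MEFs, 26653 in all. WT cells carry 2 normal *Tug1* alleles, and KO cells are homozygous for Tug1_tm1.1Vlcg, an allele in which the body of *Tug1* is replaced by the *lacZ* reporter. All 6 samples are from male embryos on a C57BL/6J background, and the *Neo* cassette is absent. The cultures were primary cells from mid-gestation littermates, grown in serum and lysed in the dish at passage 2, and polyadenylated RNA was sequenced. The other samples of the series are adult tissues of the same genotypes.

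Fibroblasts build the connective tissue matrix of collagens, fibronectin and proteoglycans, and in culture they divide and keep a pattern of Hox gene expression that records the body region they came from. Cultures made from whole embryonic tissue also carry other cells, among them macrophages. In both cell types the transcription factor NF-κB switches on chemokine and cytokine genes after an inflammatory stimulus, and *Nfkbia*, which encodes its inhibitor IκBα, is itself one of its targets.

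The table gives each genotype as a single FPKM value (fragments scaled to transcript length and to the size of the library), into which the authors had combined the 3 samples. There is therefore no standard deviation, no test and no replicate check for any value below. How deeply each library was sequenced cannot be read from it, and a single culture with an unusual value could not be seen. A gene was counted as measured when the mean of its WT and KO values was at least 1 FPKM, which left 11586 genes with the reporter set aside. Changes are given as log2((KO + 0.1)/(WT + 0.1)), and the 2-fold limit is a change of 2 times or more on that scale. A low gene spreads more than a high one: 90% of the changes lay between -0.64 and 0.44 for genes with a mean of 1 to 3 FPKM, and between -0.31 and 0.18 for genes at 100 FPKM or more.

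The knockout was visible at the targeted gene. *Tug1* (chr11:3639785-3649673 on GRCm38, minus strand) stood at 20.9 FPKM in WT and 0.121 FPKM in KO MEFs, a log2 change of -6.57. The reporter was listed at 0 in WT and at 6.77 FPKM in KO. The cells had a fibroblast profile in both genotypes: *Col1a1*, a chain of type I collagen, stood at 1754 FPKM in WT and 1632 in KO, and the surface glycoprotein *Thy1* at 372 and 367. All 15 fibroblast markers listed were measured, none passed the 2-fold limit, and their median change was -0.10. The intermediate filament gene *Vim* was at 2321 and 2343 FPKM, and the smooth muscle actin *Acta2*, which cultured fibroblasts also make, was at 5752 and 5246 FPKM and had the second highest mean of the 10 most abundant transcripts. The lowest marker change was that of *Fap*, a fibroblast surface protease, at 10.6 FPKM in WT and 6.16 in KO (-0.77). *Xist* was at 0.0040 and 0.0024 FPKM, and the Y-linked gene *Ddx3y* at 19.1 and 13.4 (-0.51), and both genotypes thus carried the male pattern of their labels.

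Few genes differed by the 2-fold limit. In KO MEFs 36 genes (0.311% of those measured) were higher and 38 (0.328%) were lower, while the median change over all measured genes was -0.001. At a limit of 1.5 times, 112 genes (0.967%) were higher and 255 (2.2%) were lower. Most of the genes past the 2-fold limit were expressed at a low level: 13 of the 36 higher genes and 11 of the 38 lower genes had a mean of at least 5 FPKM. The genes just inside and just outside the limit had nearly equal values. *Alox5ap*, which assists leukotriene synthesis, was inside at 5.65 FPKM in WT and 11.5 in KO (1.01), and the clock-related factor *Arntl2* was just outside at 2.04 and 4.19. Among lower genes, *Tmsb15l* was inside (2.33 and 1.10 FPKM, -1.02), and *H19* was outside by the smallest margin, at 617 and 309 FPKM.

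**Figure D1:**
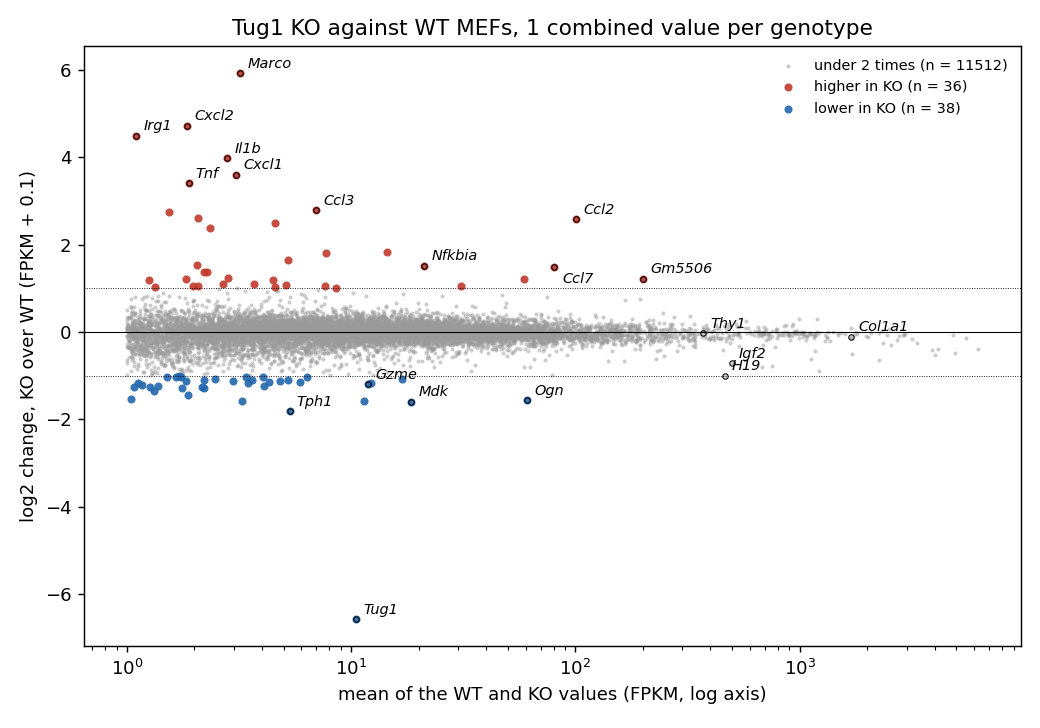
Each point is 1 of the 11586 measured genes in MEFs, by the mean of its WT and KO values in FPKM (log axis) and its log2 change, with dotted lines at the 2-fold limit. The 36 genes past the limit on the upper side (red) include the scavenger receptor *Marco* at 5.93 and the chemokine *Cxcl2* at 4.73, *Tug1* lies lowest at -6.57, and *Col1a1* and *Thy1* lie near 0.

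Of the 36 genes higher in KO, 19 were members of the lists of immune and inflammatory genes, and none of the 38 lower genes was. Of the 19, 11 came from a list of 33 measured genes drawn up after the values were seen. The count therefore describes the genes and tests nothing. The other list, of immune and stress response genes, had 85 measured genes and 8 past the limit, all higher. Over all measured genes, 36 of 11586 (0.311%) were higher. Lists of immune cell markers were counted apart, and 5 of their genes were lower past the limit: the tissue macrophage gene *Ly86* and *Gzmc*, *Gzmd*, *Gzme* and *Tph1* of the granzyme and mast cell list. A gene also had to reach a mean of 1 FPKM to be counted, so one low in WT passed only through its KO value, and 7 of the 36 higher genes were under 0.5 FPKM in WT. The general list of chemokines and cytokines held 26 genes, of which 18 were measured. In KO MEFs, 17 of the 18 had a change above 0, 6 were past the 2-fold limit on the upper side and none on the lower side. Their median change was 0.50, against -0.001 over all genes. *Cxcl1* and *Cxcl2* had passed through their KO value alone. Over all 26 listed genes, with no limit on the level, 22 were above 0 and 4 below, and the median was 0.42.

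Among those past the limit, the most abundant were monocyte attractants of the CC family. *Ccl2* (chr11:82035571-82037453), which draws monocytes through the receptor CCR2, was at 28.8 FPKM in WT and 173 in KO (2.58, or 5.99 times). Its neighbour *Ccl7* (chr11:82045712-82047525), which acts on the same receptor and others, was at 41.9 and 118 FPKM (2.82 times). *Ccl12*, a further ligand of that receptor in the mouse, was at 4.19 and 7.75 FPKM (0.87), below the limit. In a second group on the same chromosome, *Ccl3* (chr11:83647844-83649355) was at 1.68 and 12.3 FPKM (2.80), *Ccl4* at 1.31 and 7.85 (2.50) and *Ccl5* at 1.31 and 2.84 (1.06). *Ccl20*, which attracts cells through CCR6, was at 2.48 and 7.96 FPKM (1.65). All of these genes were expressed in WT MEFs too, and each was higher in KO.

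The neutrophil attractants of the CXC family were near the lower end of the table in WT. *Cxcl1* was at 0.383 FPKM in WT and 5.77 in KO (3.60), and *Cxcl2* at 0.0425 and 3.67 (4.73). *Cxcl10*, which draws T cells and responds to interferon, was at 2.67 and 6.26 FPKM (1.20). With so little signal in WT, the size of the change in *Cxcl2* depended on the pseudocount: it was 2.16 with a pseudocount of 1 and 6.13 with 0.01. *Cxcl12*, the chemokine that fibroblasts make without a stimulus, was at 193 and 197 FPKM (0.03). *Cxcl14* of the same list was at 16.8 and 9.22 FPKM (-0.86). A list of further chemokines, drawn up after the values were seen, had 5 measured genes, of which *Ccl17* was at 4.72 and 2.54 FPKM (-0.87) and *Ppbp* at 4.51 and 2.71 (-0.72). Chemokine genes thus lay on both sides of 0.

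A list of 8 primary cytokines, drawn up after the values were seen, had 4 measured genes, 3 above 0 and 1 below. The 3 higher ones were low in WT and had passed the limit on the level through their KO values alone. *Il1b* was at 0.247 FPKM in WT and 5.36 in KO (3.98), *Il1a* at 0.327 and 2.75 (2.74) and *Tnf* at 0.242 and 3.53 (3.41). The natural antagonist of interleukin 1, *Il1rn*, was at 5.37 and 4.92 FPKM (-0.13). *Il6* was at 2.81 and 4.35 FPKM (0.61) and the macrophage growth factor *Csf1* at 125 and 209 (0.74), neither past the 2-fold limit. The acute phase gene *Saa3* was at 0.508 and 3.65 FPKM (2.62). It belonged to a list of complement and acute phase genes with 4 measured, 2 above 0 and 2 below, the lowest of them the complement inhibitor *Serping1* at 3.01 and 1.53 FPKM (-0.93).

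Genes of the NF-κB pathway had changes above 0. *Nfkbia* stood at 10.9 FPKM in WT and 31.5 in KO (1.52). Of 17 pathway genes listed after the values were seen, 15 were measured, none had a change below 0, and their median was 0.53. *Nfkbia* was the only one past the 2-fold limit. *Nfkbie*, another inhibitor, was just outside it at 1.68 and 3.46 FPKM. The subunit *Relb* was at 4.80 and 9.50 FPKM (0.97), the deubiquitinase *Tnfaip3*, which ends the signal, at 5.54 and 9.68 (0.79), and the subunit *Rela* at 22.1 and 25.6 (0.21).

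The start regions of these genes were searched for the NF-κB consensus of 10 bases on both strands, over the 250 bases before each RefSeq start. Of the 19 higher genes in the immune lists, 15 had an entry in the RefSeq promoter table and 6 of these 15 (40.0%) held a match: *Ccl20*, *Cxcl1*, *Cxcl2*, *Cxcl10*, *Nfkbia* and *Tlr2*. Over all 36 higher genes the count was 7 of 21 with an entry (33.3%), over the 38 lower genes 2 of 25 (8.0%), and over all genes measured in MEFs 963 of 9043 (10.6%). The other immune genes with an entry (*Ccl3*, *Clec4d*, *Gpr84*, *Il1a*, *Il1b*, *Irg1*, *Marco*, *Saa3* and *Tnf*) held none. *Ccl2*, *Ccl4*, *Ccl5* and *Ccl7* had no entry. The immune genes were picked as higher in KO, from lists partly drawn up after the values were seen, so their share tests nothing. List members not past the limit were not counted apart. A match describes the letters and was not tested as a binding site. The 120 bases before the start of 5 of the genes are shown because they hold the matches next to the start. They are in RefSeq coordinates on GRCm38.p6, 5′ to 3′ on the gene's own strand, and capitals mark the match, where overlapping matches run together.
*Cxcl1* chr5:90891125-90891244 (+ strand): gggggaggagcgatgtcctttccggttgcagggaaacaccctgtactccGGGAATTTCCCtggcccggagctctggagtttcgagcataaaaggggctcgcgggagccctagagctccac
*Cxcl2* chr5:90903779-90903898 (+ strand): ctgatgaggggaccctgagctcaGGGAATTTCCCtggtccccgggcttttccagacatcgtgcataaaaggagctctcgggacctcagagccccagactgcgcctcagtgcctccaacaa
*Cxcl10* chr5:92348890-92349009 (- strand): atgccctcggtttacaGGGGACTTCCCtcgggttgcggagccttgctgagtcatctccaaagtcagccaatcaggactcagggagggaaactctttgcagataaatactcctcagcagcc
*Ccl20* chr1:83116646-83116765 (+ strand): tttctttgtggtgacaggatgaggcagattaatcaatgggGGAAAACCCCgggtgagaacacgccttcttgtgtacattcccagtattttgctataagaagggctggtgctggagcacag
*Nfkbia* chr12:55492648-55492767 (- strand): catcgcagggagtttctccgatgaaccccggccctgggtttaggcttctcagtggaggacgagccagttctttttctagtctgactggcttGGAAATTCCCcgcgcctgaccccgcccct
The capitals began 71 bases before the start in *Cxcl1*, 97 in *Cxcl2*, 104 in *Cxcl10*, 80 in *Ccl20* and 29 in *Nfkbia*. The same 11 capitals stand in *Cxcl1* and *Cxcl2*, which lie side by side on chromosome 5.

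A further group of higher genes is known from activated macrophages. *Marco*, a scavenger receptor, was at 0.0067 FPKM in WT and 6.41 in KO (5.93), and *Irg1*, the enzyme that makes itaconate, at 0.0023 and 2.21 (4.50). With a pseudocount of 1 these changes were 2.88 and 1.68. *Gpr84*, a receptor for fatty acids, was at 0.686 and 4.01 FPKM (2.39), the lectin *Clec4d* at 1.01 and 3.11 (1.53), and the receptor for bacterial lipoproteins *Tlr2* at 1.20 and 3.24 (1.37). These 5 were the members past the limit in a list of 13 drawn up after the values were seen. *Marco* and *Irg1* were close to 0 in WT, and they and *Gpr84* were measured only through their KO values. Counts for this list therefore describe the genes and test nothing. Of its 9 measured genes, 6 were above 0 and 3 below: *Cd40* at 10.8 and 9.60 FPKM (-0.17), *Msr1* at 6.84 and 6.30 (-0.12) and *Slc7a2* at 2.24 and 1.94 (-0.20).

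Markers of macrophages were present in both genotypes and did not move as 1 block. Of 13 listed, 12 were measured. *Lyz2* (54.4 FPKM in WT and 95.02 in KO, 0.80), *Cd14* (2.92 and 5.56, 0.91) and *Emr1* (4.99 and 7.08, 0.50) were above 0, and the other 9 were below 0. The complement gene *C1qa* was at 37.3 and 26.8 FPKM (-0.48), *Cd68* at 12.9 and 8.90 (-0.53), the receptor *Csf1r* at 9.62 and 7.53 (-0.35) and the mannose receptor *Mrc1* at 4.93 and 2.97 (-0.71). The summed level of the 13 markers was 246 FPKM in WT and 240 in KO. A list of 18 genes of tissue macrophages, drawn up after the values were seen, pointed down throughout: 14 were measured, all with a change below 0, and the median was -0.70. Its summed level was 103 FPKM in WT and 63.3 in KO. Within it, *Ly86* passed the 2-fold limit (4.83 and 2.09 FPKM, -1.17), and *Trem2* was at 7.13 and 4.23 (-0.74). In cultures measured as a whole, fewer cells of a type and less RNA per cell cannot be told apart. The part of macrophages, or of a single culture, in the chemokine and cytokine values was not tested.

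**Figure D2:**
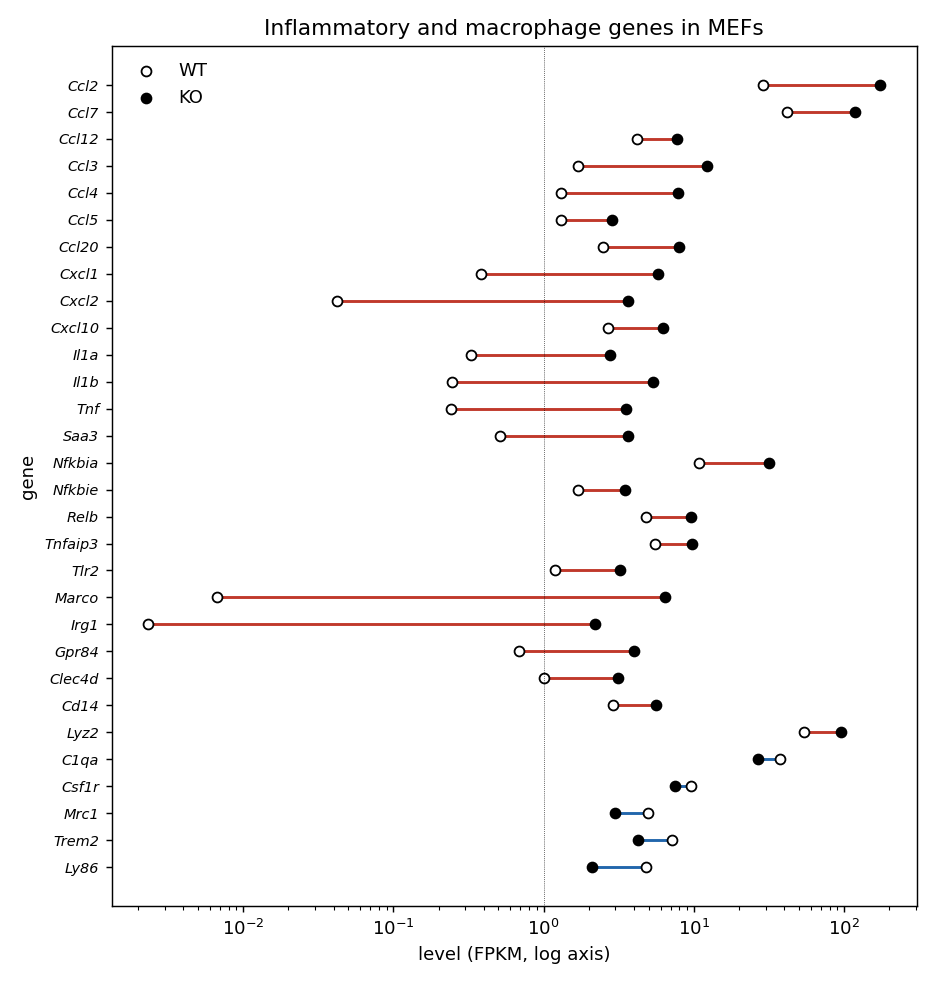
WT (open) and KO (filled) values of 30 genes in FPKM on a log axis, with a red line where KO was higher and a blue line where it was lower. From *Ccl2* down to *Lyz2* all genes shown lie higher in KO, while *C1qa*, *Csf1r*, *Mrc1*, *Trem2* and *Ly86* lie lower. The 30 genes were chosen for display, and lower members of the same lists, such as *Cxcl14*, *Ccl17* and *Serping1*, are not shown.

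Interferon-stimulated genes differed less. All 16 measured genes of the list had a change above 0, with a median of 0.27, and *Cxcl10* was the single one past the 2-fold limit. The interferon-inducible *Ifi27l2a*, which is in no list, was lower past the limit, at 2.54 and 0.982 FPKM (-1.29). *Isg15*, a ubiquitin-like protein, was at 4.61 FPKM in WT and 7.98 in KO (0.78), and the sensor *Ifih1* at 1.63 and 1.68 (0.04). Immediate early genes, which respond within minutes to serum or stress, had a median of 0.24 over 17 measured. *Fosl1* was at 8.41 and 14.99 FPKM (0.83) and *Myc* at 27.4 and 41.4 (0.59), while *Egr1* was at 24.9 and 25.4 (0.02). Genes of the amino acid and endoplasmic reticulum stress response had a median of 0.07 over 16, and the stress-induced cytokine *Gdf15* was at 2.99 and 6.20 FPKM (1.03).

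Matrix genes leaned to lower values in KO, with few large differences. Of 100 listed, 70 were measured: 49 had a change below 0 and 21 above, the median was -0.18, and 2 genes (*Ogn* and *Col10a1*) passed the 2-fold limit, both lower. Over all measured genes 5803 of 11586 were below 0. The abundant matrix proteins differed little. *Sparc* was at 2553 FPKM in WT and 2140 in KO (-0.25), the proteoglycan *Bgn* at 1777 and 1778 (0.00), fibronectin (*Fn1*) at 1649 and 1750 (0.09) and *Col1a2* at 1459 and 1258 (-0.21). *Col3a1*, the partner collagen of skin and vessels, was at 371 and 296 FPKM (-0.32).

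By role, the proteoglycans had the lowest median (-0.53 over 9 genes). *Ogn* (osteoglycin, chr13:49608046-49624501), a small leucine-rich proteoglycan that binds collagen, was at 91.1 FPKM in WT and 30.8 in KO (-1.56, or 2.95 times lower). Its relatives *Aspn* (74.8 and 42.6 FPKM, -0.81), *Fmod* (5.92 and 3.51, -0.74), *Lum* (2.57 and 1.66, -0.60) and *Dcn* (14.9 and 10.2, -0.53) had changes below 0 that stayed under the 2-fold limit. The basement membrane proteoglycan *Hspg2* was at 131 and 158 FPKM (0.27). Median changes were -0.16 for 10 fibrillar collagens, -0.07 for 6 basement membrane collagens, -0.32 for 10 other collagens, -0.13 for 25 elastic fibre and matrix glycoproteins and -0.20 for 10 laminins and nidogens. *Col10a1* and *Col2a1* are collagens of cartilage: the first was at 1.97 and 0.778 FPKM (-1.23) and the second at 5.56 and 3.48 (-0.66). Further chondrocyte genes were low in both genotypes, with *Sox9* at 1.76 and 1.59 FPKM (-0.14) and *Sox5* under 1 FPKM.

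Enzymes that fold, cross-link and cut the matrix followed the same small shift. The 16 genes of collagen folding and cross-linking had a median of -0.12 and none passed the 2-fold limit. *Lox*, which cross-links collagen and elastin, was at 594 FPKM in WT and 473 in KO (-0.33), and the collagen chaperone *Serpinh1* at 1143 and 1102 (-0.05). The 20 proteases measured had a median of -0.27. Their highest value was that of *Mmp12*, an elastase made mainly by macrophages, at 4.38 and 7.99 FPKM (0.85).

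Proliferation genes leaned to higher values by a small amount. Of 58 listed, 57 were measured, 51 with a change above 0 and 6 below, and none passed the 2-fold limit. The median was 0.28 over 24 DNA replication genes and 0.17 over 33 mitotic genes. The replicative helicase subunits *Mcm2* to *Mcm7* all had changes between 0.27 and 0.39, for example *Mcm6* at 23.6 FPKM in WT and 30.5 in KO (0.37). *Pcna*, the sliding clamp of the polymerases, was at 46.4 and 52.9 FPKM (0.19), *Cdk1* at 57.7 and 64.6 (0.16) and *Top2a* at 36.4 and 41.7 (0.20). The proliferation marker *Mki67* went the other way, at 13.7 and 12.2 FPKM (-0.17), as did the kinetochore genes *Cenpf* (2.37 and 1.19, -0.93) and *Cenpe* (5.50 and 3.08, -0.82). *Mybl2*, which drives cell cycle genes, was highest at 4.04 and 6.56 FPKM (0.69).

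Cell cycle inhibitors and p53 targets had medians close to 0, at -0.09 over 16 and -0.08 over 18 genes, and none passed the 2-fold limit. *Cdkn1a*, the p21 inhibitor, was at 379 FPKM in WT and 352 in KO (-0.10). *Cdkn2a*, the locus of p16 and p19Arf that rises as MEFs age in culture, was at 45.4 and 35.5 FPKM (-0.36), and *Cdkn1c* at 14.5 and 9.31 (-0.64). Among D cyclins *Ccnd1* was at 73.5 and 90.4 FPKM (0.30) and *Ccnd2* at 260 and 234 (-0.15).

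**Figure D3:**
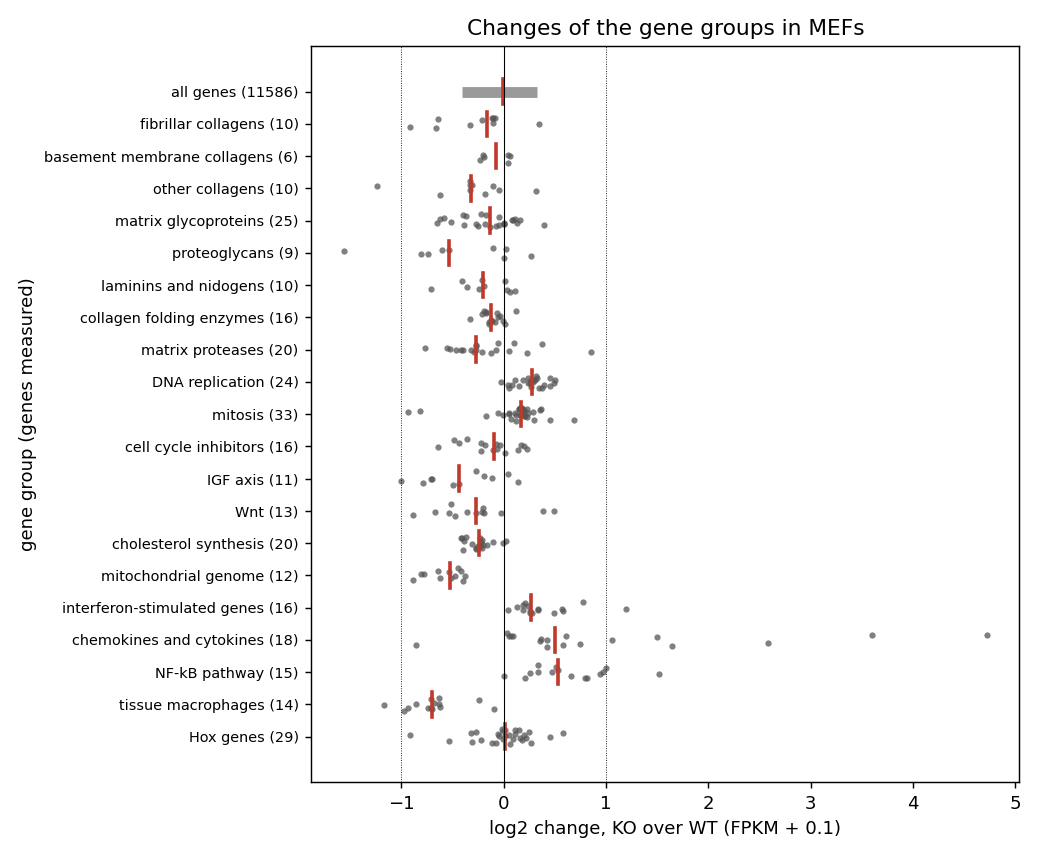
Log2 change of each measured gene (grey points) and the median (red line) for 20 gene groups in MEFs, with the number of genes measured in brackets; the grey bar spans 90% of all 11586 measured genes. Medians of chemokines and the NF-κB pathway lie above 0, replication and mitosis slightly above, and the matrix groups, the IGF axis and tissue macrophages below. The NF-κB pathway, tissue macrophage and mitochondrial genome groups were drawn up after the values were seen.

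Hox genes, which mark position along the body, had changes under the 2-fold limit that differed between clusters and paralog groups. Of 38 Hox genes in the table, 29 were measured, none passed the 2-fold limit, and the median change was 0.02. The highest levels were those of *Hoxb9* (21.7 FPKM in WT and 20.6 in KO, -0.07), *Hoxc6* (21.4 and 20.7, -0.05) and *Hoxc8* (17.6 and 15.1, -0.22). Cluster medians were 0.17 for 10 *Hoxa* genes, 0.03 for 8 *Hoxb* genes, -0.04 for 7 *Hoxc* genes and -0.40 for 4 *Hoxd* genes. The anterior genes of paralog groups 1 to 8 had a median of 0.11, with 15 of 20 above 0, and the posterior genes of groups 9 to 13 a median of -0.07, with 1 of 9 above 0. Of these posterior genes, *Hoxa9* (-0.001) and *Hoxc9* (-0.014) were close to 0. The *Hoxc* genes showed no such order, with *Hoxc4* at 0.115, *Hoxc8* at -0.22 and *Hoxc11* at 0.094. Across the 29 genes, Spearman's rho between paralog group and change was -0.67, given as a description since neighbouring Hox genes share enhancers and the same 6 samples. The extremes were *Hoxd13*, which patterns digits and genital tissue, at 2.32 and 1.19 FPKM (-0.91), and *Hoxa4* at 0.935 and 1.45 (0.58). Both had means under 3 FPKM, where single genes spread most.

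**Figure D4:**
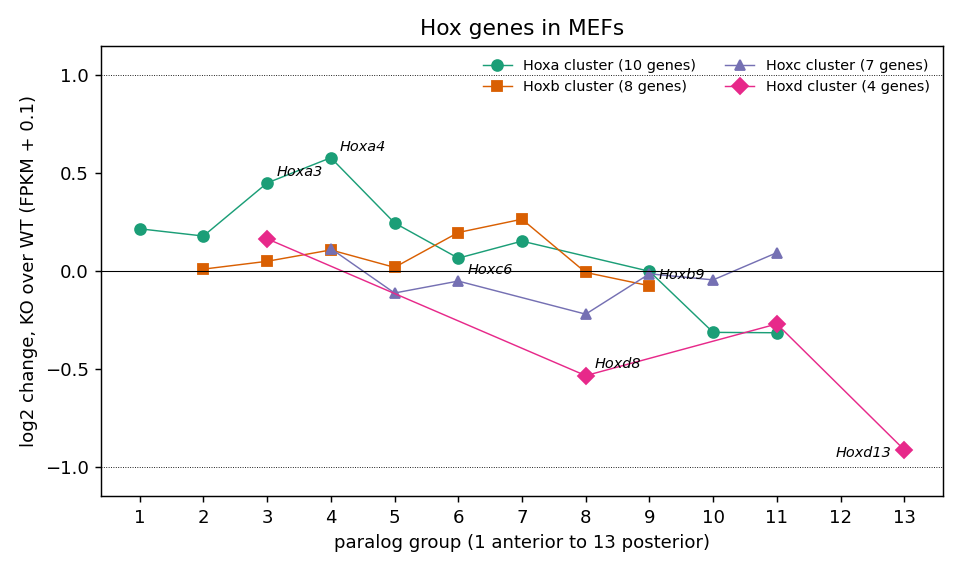
Log2 change of the 29 measured Hox genes in MEFs by paralog group, from 1 (anterior) to 13 (posterior), with 1 line for each cluster and dotted lines at the 2-fold limit. All points lie within the limit, from 0.58 (*Hoxa4*) to -0.91 (*Hoxd13*).

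Other regional factors were counted the same way. Of 81 listed, 43 were measured with a median of -0.05. Limb and T-box factors had a median of -0.19 over 15. The hindlimb factors *Tbx4* (1.45 and 0.764 FPKM, -0.84) and *Pitx1* (2.77 and 1.87, -0.54) were lower, with the general limb mesenchyme factor *Prrx1* at 102 and 89.5 FPKM (-0.19). The Hox cofactor *Meis2* was at 26.3 and 22.6 FPKM (-0.21). The 26 measured Polycomb genes, whose products keep Hox genes silent outside their region, had a median of 0.11 and none passed the limit.

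Growth factor genes of the insulin-like growth factor (IGF) axis were mostly lower. Of 12 listed, 11 were measured, 9 were below 0, and the median was -0.43. *Igf2*, the main fetal growth factor of the axis, was at 618 FPKM in WT and 379 in KO (-0.71). *H19*, the imprinted noncoding RNA next to it, was at 617 and 309 FPKM. *Igf1* was at 11.4 and 6.58 FPKM (-0.78) and the binding protein *Igfbp3* at 19.3 and 11.9 (-0.70), whereas the receptor *Igf1r* was at 26.3 and 27.1 (0.04). The 13 Wnt genes measured had a median of -0.27, and the secreted Wnt-related protein *Dkk3* was at 44.7 and 24.1 FPKM (-0.89). The 16 genes of TGF-β and BMP signalling had a median of -0.01, with *Bmp4* at 23.2 and 13.4 FPKM (-0.78) and the TGF-β target *Ctgf* at 894 and 1095 (0.29).

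The largest falls in level among genes with a mean of at least 5 FPKM, after *Tug1*, were in genes of varied function. *Tph1*, the first enzyme of serotonin synthesis and active in mast cells, was at 8.34 FPKM in WT and 2.29 in KO (-1.82). *Mdk* (midkine), a secreted heparin-binding growth factor, was at 27.9 and 9.15 FPKM (-1.60), and *Crabp2*, a carrier of retinoic acid, at 17.2 and 5.70 (-1.58). The granzyme *Gzme* was at 16.7 and 7.23 FPKM (-1.19), and *Rgs5*, a pericyte regulator of G protein signalling, at 23.0 and 10.8 (-1.08). *Cercam* (-1.18), *Fxyd6* (-1.14), *Olr1* (-1.09) and *Dcaf12l1* (-1.04) were between 2.05 and 2.26 times lower.

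Several of the largest rises were in genes that share nearly all their sequence with another gene. The longest GENCODE vM21 transcript of each gene past the 2-fold limit was aligned to those of all other genes, and 6 of the 36 higher and 5 of the 38 lower genes matched another gene at 95% identity or more over at least 50% of the transcript. The search was not run for all measured genes, so whether these shares are unusual is not known. *Gm5506* was at 120 FPKM in WT and 280 in KO (1.22), and it matched the glycolytic gene *Eno1* at 99.5% identity, which was itself at 689 and 658 FPKM (-0.07). *Rps2-ps10* was at 20.1 and 41.8 FPKM (1.05) and matched *Rps2* at 99.5%, at 1498 and 1475 (-0.02). How the authors' counting divided reads between such pairs cannot be told from the table, so these values are uncertain.

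The genes next to *Tug1* were read in the same way. *Rnf185*, a ubiquitin ligase, was at 12.02 FPKM in WT and 22.2 in KO (0.88), the noncoding gene *8430429K09Rik* at 3.16 and 6.11 (0.93) and the selenoprotein gene *Selm* at 145 and 243 (0.75). *Morc2a*, which starts beside *Tug1* on the other strand, was at 16.5 and 12.2 FPKM (-0.43). *Smtn* was at 40.0 and 48.9 FPKM (0.29) and the noncoding gene *Gm11946* at 1.65 and 2.39 (0.51). None of these genes passed the 2-fold limit. *Rnf185*, *8430429K09Rik* and *Selm* were higher by 1.5 times or more, as were 0.967% of all measured genes. The libraries did not mark strand, so reads where *Tug1* and *Morc2a* overlap could not be told apart. Each tissue of the series has its own WT samples, and in the 6 adult tissues the change of *Rnf185* lay between 0.75 and 1.03 and that of *Selm* between 0.57 and 1.02. The change of *Morc2a* ranged there from -0.31 in testes to -3.05 in liver.

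In the adult tissues where they could be read, *Ccl2*, *Ccl3* and *Tnf* had KO values close to WT. These genes were picked from the chemokine and cytokine genes, and adult values of the others are not summarised here. *Ccl2* was measured in heart (3.17 FPKM in WT and 3.19 in KO, 0.01) and had a mean under 1 FPKM in the other 5 tissues. *Ccl3* was measured in spleen (1.52 and 1.27 FPKM, -0.25), as was *Tnf* (3.44 and 3.24, -0.08). *Nfkbia* had changes from -0.14 in spleen to 0.48 in heart. *Marco* was at 97.9 and 98.3 FPKM in spleen (0.01) and at 2.63 and 18.4 in liver (2.76). *Ogn* had changes from -0.32 to 0.14 in the 6 tissues. The difference between MEFs and tissues was not tested.

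**Figure D5:**
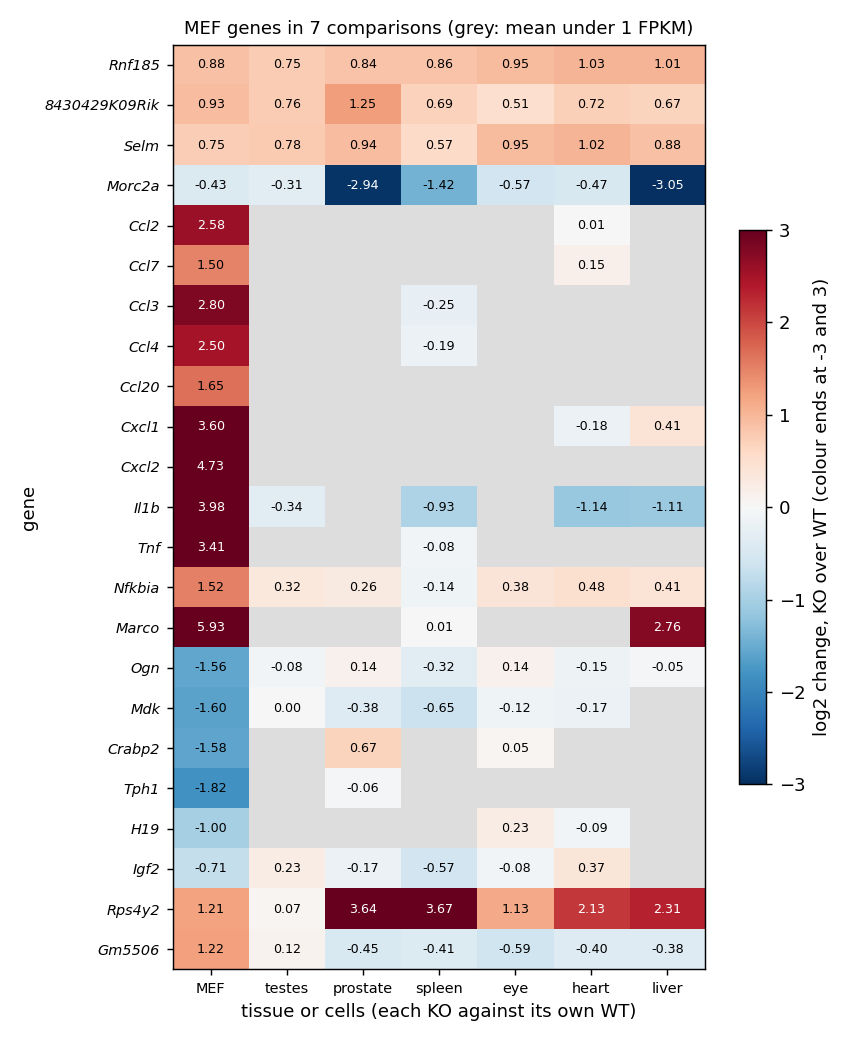
Log2 change (KO over that tissue's own WT) of 23 genes in MEFs and 6 adult tissues, red for higher and blue for lower in KO, with grey cells where the mean was under 1 FPKM. *Rnf185*, *8430429K09Rik* and *Selm* are above 0 in all 7 columns, while *Ccl2*, *Ccl3* and *Tnf* are red in the MEF column and between -0.25 and 0.01 in the other columns with a value. The other chemokine and cytokine rows are not summarised.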

How the data were processed

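RNA from 3 WT and 3 KO MEF cultures had been sequenced by the authors; the submitters' notes name CASAVA 1.8.2, TopHat2 and Cuffdiff and the mouse build mm10. The deposited values are FPKM, 1 value for each gene and genotype, with the replicates combined by the authors and no count or depth given. The table also holds the authors' own log2 fold changes, test statistics, p-values, q-values and significance flags, which were not used. The methods of the paper describe another route, from counts, for the authors' calls.

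Groups were taken from the sample labels. Changes were computed as log2((KO + 0.1)/(WT + 0.1)) with Python 3.11.15, pandas 2.3.3 and numpy 2.4.6, for genes with a mean of at least 1 FPKM, and genes past a change of 2 times were counted. No statistical test could be made on 1 value per genotype. The steps were tested on simulated data. Genes named are the 12 largest rises and falls with a mean of at least 5 FPKM and a completed status, the 10 highest in level, members of gene lists that passed the limit or were highest in level, markers, and genes of the *Tug1* locus; *Arntl2*, *Tmsb15l*, *Ifi27l2a* and some list members under the limit were chosen after their values were seen. The members and lists were chosen with earlier results of these data known, and 6 of the 22 lists were added after the MEF values were seen. Of the 881 listed symbols 879 were in the table, and *Hoxd4* and *Kcnq1ot1* were not analysed here. Coordinates are from GENCODE vM21, matched by Ensembl gene for 25827 rows, copies were sought with BLAST+ 2.17.0, and promoters are from RefSeq. A few genes are not reported here. The alternatives tried are given in the closing section.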

Additional observations from a re-analysis of the deposited data

How the results depend on the processing

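The counts past the fold limit depended on the settings for low values. With a pseudocount of 1 there were 21 higher and 10 lower genes, with a mean of at least 5 FPKM 13 and 11, with no filter on low values 88 and 136, with a limit of 1.5 times 112 and 255, and with a limit of 3 times 15 and 4. A pseudocount of 0.01, centring and genes with a completed status kept both counts within 1.5 times. The median of the chemokines and cytokines was 0.37 with either a pseudocount of 1 or a mean of at least 5 FPKM. The medians of the matrix, proliferation and Hox lists moved by less than 0.1 on the log2 scale under every alternative run. That margin is large beside the medians themselves. With a mean of at least 5 FPKM the matrix median was -0.104 against -0.185, and the Hox median -0.001 against 0.019. None of the genes past the limit changed direction under any alternative in which it was measured, though with a pseudocount of 1, 43 of them fell under it. No replicate could be left out and no batch could be compared, since the table has 1 value per genotype. No paired analysis was possible because the columns carry no replicate and no test was made.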

Other observations

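Genes carried by the mitochondrial genome were lower in KO MEFs. Of 13 protein-coding genes, 12 were measured, all with a change below 0 and none past the 2-fold limit, and the median was -0.52. *mt-Nd4*, a subunit of complex I, was at 1582 FPKM in WT and 855 in KO (-0.89), and *mt-Co1*, a subunit of complex IV, at 5721 and 4103 (-0.48). Their share of the summed FPKM was 7.45% in WT and 5.53% in KO. Nuclear regulators of mitochondrial genes had a median of 0.06 over 8. Enzymes of cholesterol synthesis also leaned down: 19 of 20 were below 0, with a median of -0.24 and none past the limit, for example *Hmgcs1* at 77.5 and 62.3 FPKM (-0.31).

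Imprinted genes gave mixed values over 17 measured (median -0.14). *Peg3* was at 79.7 FPKM in WT and 45.3 in KO (-0.81) and *Mest* at 29.8 and 17.0 (-0.80), while *Meg3* was at 181 and 196 (0.11) and *Dlk1* at 15.6 and 18.9 (0.27). Markers of mesothelium, the lining of body cavities, were low in both genotypes: *Msln* was at 6.66 and 2.99 FPKM (-1.13), *Upk1b* at 3.04 and 1.36 (-1.11) and *Upk3b* at 2.08 and 0.959 (-1.04), with *Wt1* at 2.99 and 3.24 (0.11). The protease genes *Gzmc* (2.79 and 0.965 FPKM, -1.44), *Gzmd* (4.95 and 2.27, -1.09) and *Mcpt8* (10.4 and 5.602, -0.88) were lower along with *Gzme* and *Tph1*. These lists, other than cholesterol synthesis and the mitochondrial regulators, were drawn up after the values were seen.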
